A study of Rattus norvegicus with 49 samples.

Results

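The comparison described here is that of rats given 15% less food for 14 days (group 3) with rats that ate ad libitum for the same time (group 2), both fasted overnight before the liver was taken. Its members were chosen by their labels alone, 5 rats of group 3 and 5 of group 2, or 10 of the 49 arrays of the series, with 1 array per animal. All animals were male Sprague Dawley rats of approximately 8 to 10 weeks, kept in groups or pairs on an even cycle of light and dark and given powdered feed. The reduction was set from the recent average intake of the ad libitum groups. The other rats of the series serve only for context: groups 3 and 2 at day 4, groups 4 and 5 with 30% and 60% less food, and group 1, which ate ad libitum and, by its labels, was not fasted, although the description of the whole series has all animals fasted. Necropsy followed 1 day after the last day of restriction, and the hour of the day is not given in the sources used here.

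The liver keeps blood glucose and blood lipids steady between meals. In the fed state it stores glycogen and makes fatty acids and cholesterol, and during a fast it burns fatty acids, makes ketone bodies and releases glucose. Many of these functions also follow the hour of the day through the circadian clock, a loop in which BMAL1 with CLOCK or NPAS2 activates the genes of the PER, CRY and REV-ERB repressors, which in turn hold the activators down, and meal times are known to set the phase of this loop in the liver.

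All values are log2 intensities of 1 probe set per gene, for 14217 genes, and a difference of 1 is a doubling. Because probes differ in brightness, levels are not compared between genes. A gene is said to have risen or fallen where limma, fitted to the 10 rats over all genes, gave a Benjamini-Hochberg adjusted p under 0.1, the false discovery rate named in the study's methods. The hepatocyte markers were present at high level in both groups, with albumin (Alb) at 14.97 in group 3 and 14.99 in group 2 and the lowest of the 9, Hnf4a, at 12.47 and 12.45, and none of them passed the test, although 2 had an unadjusted p under 0.05. In 1 fit of all groups 2 of the 9 were called lower, and without group 3 rat 3 there was 1. Over all probe sets, the array medians of the 10 rats lay between 6.34 and 6.41. In bulk tissue, fewer cells of a type and less RNA per cell cannot be told apart, and the number of rats limits the precision of every value.

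With 15% less food, 484 genes rose and 446 fell, or 3.4% and 3.14% of the genes tested (6.54% together), and 2348 had an unadjusted p under 0.05. The 5 rats of group 3 did not overlap with the 5 of group 2 at 814 genes, 5.73% of those tested, with 414 above (2.91%) and 400 below (2.81%). Most changes were small: the median absolute change of the called genes was 0.43, and 41 genes (0.288%) rose and 49 (0.345%) fell by at least 2-fold. The first principal component of the 10 rats held 33.1% of their variance and separated the groups, with group 3 rat 3 nearest to the controls at a score of 5.003, against 12.49 to 19.45 for the other group 3 rats and −16.95 to −10.3 for group 2. Without group 3 rat 1 the counts were 340 higher and 314 lower.

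Large changes were found in genes of the circadian clock. Each rat was sampled once, at an hour that is not given, so a changed level and a shifted phase cannot be told apart. Of the 4 activators measured, 3 fell and none rose, of 7 repressors 3 rose and none fell, and of 11 output genes 7 rose and none fell, against 3.4% of all genes that rose and 3.14% that fell. Medians over all members of these lists were −2.01, 1.36 and 1.24, beside 0.0038 over all genes. Promoters of the clock genes are shown first, since the loop runs through short DNA elements within them: the E-box, bound by the activators, the D-box, bound by DBP, TEF and HLF, and the ROR element, bound by REV-ERB and ROR proteins. The sequences are from RefSeq (GRCr8), 5′ to 3′ on the strand of the gene, and end before the annotated start of transcription; the capitals mark the element searched for.
Bmal1 (activator, ROR element TAGGTCA, chr1:176766208-176766327, + strand): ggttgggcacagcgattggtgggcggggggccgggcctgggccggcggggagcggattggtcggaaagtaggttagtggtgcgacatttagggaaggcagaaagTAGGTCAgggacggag
Per2 (repressor, D-box TTATGNAA, chr9:99497124-99497243, − strand): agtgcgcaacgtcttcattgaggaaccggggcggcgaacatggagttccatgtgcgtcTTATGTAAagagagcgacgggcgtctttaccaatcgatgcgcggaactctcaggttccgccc
Nr1d1 (repressor, E-box CACGTG, chr10:84229585-84229704, − strand): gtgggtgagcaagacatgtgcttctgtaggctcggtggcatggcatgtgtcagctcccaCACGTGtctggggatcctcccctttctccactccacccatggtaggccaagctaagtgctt
Tef (output, E-box, chr7:115206577-115206696, + strand): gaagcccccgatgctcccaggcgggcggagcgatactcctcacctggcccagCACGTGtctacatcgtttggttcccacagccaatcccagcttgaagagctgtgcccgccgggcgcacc
Bhlhe41 (output, E-box, chr4:180569356-180569475, − strand): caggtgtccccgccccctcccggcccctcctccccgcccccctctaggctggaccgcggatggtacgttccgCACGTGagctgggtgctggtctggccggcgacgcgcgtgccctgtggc
Bhlhe40 (output, E-box, chr4:143174200-143174319, + strand): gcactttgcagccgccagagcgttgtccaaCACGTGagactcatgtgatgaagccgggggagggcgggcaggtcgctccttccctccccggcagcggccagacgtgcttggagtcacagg
Of the 22 clock genes, 17 had a promoter in the RefSeq table, and the 250 bases before the start were searched on both strands. The E-box was found in 3 of the 7 windows of output genes, 1 of the 7 of repressors and 0 of the 5 of activators, against 5.59% of all 33469 windows and 7.57% of the 13242 windows of genes tested. Among all genes that rose it was in 11.5% of windows and among those that fell in 11.1%. The D-box was in Per2 alone of these genes (3.28% of all windows) and the ROR element in Bmal1 alone (2.26%). A match of letters is no evidence of binding.

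Among the activators, Bmal1, whose protein pairs with CLOCK or NPAS2, had 6.34, 6.11, 6.34, 5.75 and 5.43 in the 5 rats of group 3 and 9.29, 8.81, 9.72, 8.33 and 9.23 in group 2. Every rat with less food was below every control, by a mean log2 change of −3.08 (standard error 0.25, adjusted p = 4.11e-05), a level 8.47-fold lower. Npas2, the partner of BMAL1 in place of CLOCK, had 4.46, 4.81, 4.91, 4.52 and 4.95 in group 3 and 7.68, 7.26, 8.40, 7.22 and 7.41 in group 2. All 5 rats of group 3 lay below log2 5, under which genes were counted as dim, so the fall is given as a bound, at least 2.59 from the mean of group 2 to that floor (adjusted p = 1.79e-05 for the measured values). Clock itself was lower by 1.15 in group 3, with 8.09 ± 0.23 against 9.25 ± 0.17 in group 2 (SD, n = 5 each), again without overlap (adjusted p = 0.000143). Rora, an activator of Bmal1 through the ROR element, had 7.25 ± 0.17 in group 3 and 7.56 ± 0.27 in group 2 (SD, n = 5 each) and did not pass the test (adjusted p = 0.232).

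Of the repressors, 3 moved the opposite way. Per3 had 8.56, 8.62, 8.54, 8.73 and 8.67 in group 3 and 6.13, 6.55, 5.95, 6.95 and 6.04 in group 2, a difference of 2.30 (standard error 0.16, adjusted p = 1.79e-05). Per2, its close relative, had 10.14, 9.79, 9.57, 9.97 and 9.92 in group 3 and 7.41, 7.11, 8.01, 8.02 and 7.87 in group 2, and rose by 2.20 (adjusted p = 4.11e-05). For both genes the lowest rat with less food stood more than 1 log2 unit above the highest control. Nr1d2, which encodes REV-ERBβ, had 10.74, 10.63, 10.23, 10.59 and 10.58 in group 3 and 9.33, 9.45, 8.08, 9.41 and 9.18 in group 2, where rat 3 stood apart below the others (change 1.46, adjusted p = 0.0032). Nr1d1, which encodes REV-ERBα, had 8.78, 9.22, 9.26, 8.65 and 8.97 in group 3 and 8.47, 8.96, 5.09, 8.77 and 6.78 in group 2: the rats with less food lay within 0.61 units of each other, while 2 controls lay far below the other 3, and the change of 1.36 did not pass the test (standard error 0.61, adjusted p = 0.291). Per1, Cry1 and Cry2, the remaining repressors, overlapped between the groups, with changes of 0.73, 0.04 and 0.50 (adjusted p = 0.155, 0.973 and 0.108).

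**Figure D1:**
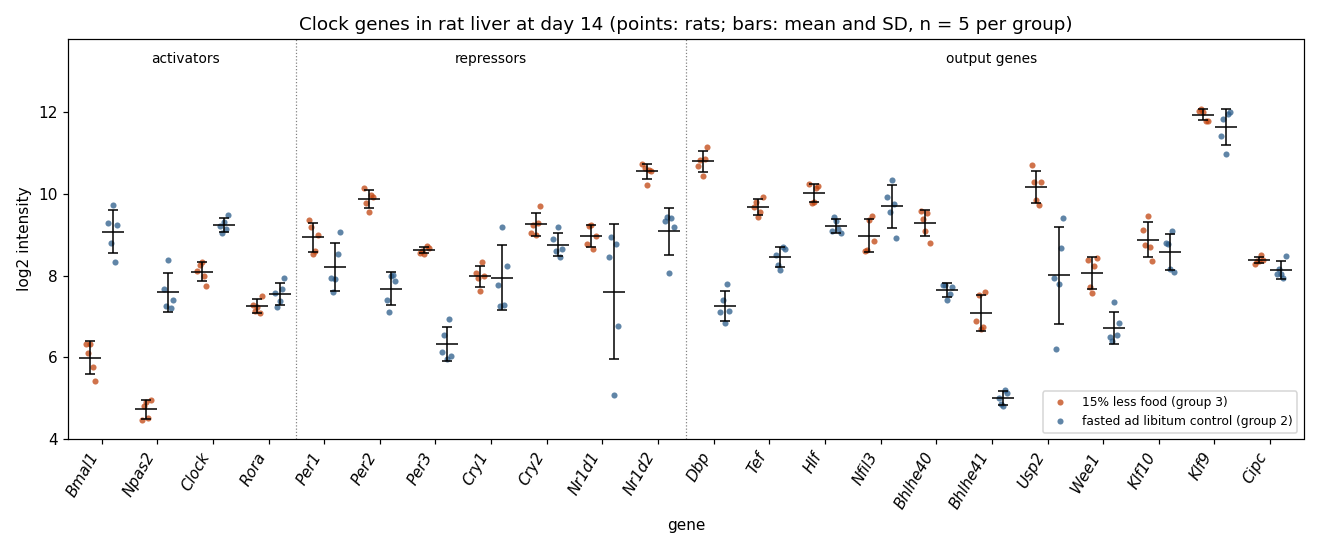
Log2 intensity (y axis) of the 22 measured clock genes (x axis) at day 14; points are rats, bars the mean and SD of 5, with 15% less food left of the fasted ad libitum control for each gene. Bmal1, Npas2 and Clock lie lower with 15% less food and Per2, Per3, Nr1d2 and 7 output genes higher, all without overlap, while the controls of Nr1d1, Usp2 and Cry1 are widely spread.

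Of the output genes, Dbp, a transcription factor under direct control of the E-box, rose most. It had 10.70, 10.85, 10.45, 10.85 and 11.15 in group 3 and 7.11, 7.40, 6.85, 7.81 and 7.13 in group 2, a change of 3.54 (standard error 0.17, adjusted p = 1.18e-06), or 11.6-fold. Its relatives Tef and Hlf rose by 1.23 and 0.82 (adjusted p = 0.000139 and 0.00155). Bhlhe41 and Bhlhe40, which encode the DEC2 and DEC1 repressors, were also higher in every rat with less food: Bhlhe41 had 6.88, 7.53, 6.69, 6.74 and 7.60 in group 3 and 5.00, 4.86, 4.81, 5.21 and 5.13 in group 2, and Bhlhe40 9.58, 9.39, 9.11, 9.53 and 8.81 in group 3 and 7.77, 7.78, 7.40, 7.56 and 7.73 in group 2. The changes were 2.09 and 1.64 (adjusted p = 5.95e-05 and 5.91e-05). Usp2, a deubiquitinase, had 10.70, 10.29, 9.85, 9.74 and 10.30 in group 3 and a wider 7.95, 6.21, 7.79, 8.67 and 9.41 in group 2 (change 2.17, adjusted p = 0.0191). Wee1, a kinase that delays mitosis, rose by 1.35 (adjusted p = 0.00302). Nfil3, which competes with DBP at the D-box, had the only negative change of this list, −0.72, with overlap of the groups (adjusted p = 0.149), and Klf9, Klf10 and Cipc did not pass the test either. The spread between rats was larger in group 2 than in group 3 at 17 of the 22 clock genes (77.3%), compared with 57% of all genes.

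The enzymes of cholesterol synthesis rose as well, by less and with more variation between rats. Of 8 measured genes of the mevalonate pathway, which leads from acetyl-CoA to squalene, 6 rose and none fell (median of all 8, 0.70). Of 11 genes from squalene to cholesterol 5 rose and none fell (median 0.37), against 3.4% and 3.14% of all genes. Promoters of 2 of these genes are shown for the CCAAT box, bound by NF-Y, a partner of the sterol-responsive factor SREBP2; source, build and direction are as above, and capitals mark CCAAT or its complement ATTGG.
Msmo1 (chr16:29746913-29747072, + strand): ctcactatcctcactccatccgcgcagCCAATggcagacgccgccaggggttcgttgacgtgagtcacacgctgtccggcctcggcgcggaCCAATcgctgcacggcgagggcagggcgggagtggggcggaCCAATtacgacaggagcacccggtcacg
Hsd17b7 (chr13:84722755-84722954, − strand): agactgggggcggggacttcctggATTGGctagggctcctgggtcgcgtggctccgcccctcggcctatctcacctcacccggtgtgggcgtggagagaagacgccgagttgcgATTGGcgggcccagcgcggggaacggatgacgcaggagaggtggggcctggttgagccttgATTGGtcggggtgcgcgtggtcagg
Each shows the box 3 times. It was found in 5 of 6 promoter windows of the mevalonate list and 8 of 10 of the later steps, against 34% of all windows and 34.6% of those of genes tested, while the sterol regulatory element searched for (TCACNCCAC) was in none of these 16, against 0.974% of all windows.

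Idi1, the isomerase that makes dimethylallyl diphosphate, had 9.63, 9.29, 7.83, 9.06 and 9.53 in group 3 and 7.95, 7.63, 8.60, 7.25 and 6.97 in group 2. It rose by 1.39, the largest change of both lists (standard error 0.36, adjusted p = 0.0474). Fdps, which makes farnesyl diphosphate, had 11.96, 11.75, 10.83, 11.53 and 12.01 in group 3 and 10.80, 10.68, 11.16, 10.49 and 10.51 in group 2 (change 0.89, adjusted p = 0.029). In both genes rat 3 of group 3 fell among the controls, and rat 3 of group 2 was the highest control. Acat2, Mvk and Mvd rose without overlap of the groups, by 0.95, 0.58 and 0.68 (adjusted p = 0.00957, 0.0312 and 0.00954), and Fdft1, the squalene synthase, by 0.73 with overlap (adjusted p = 0.0638). Pmvk and Ggps1 did not pass the test, with changes of 0.47 and 0.01.

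Past squalene, Msmo1, the sterol methyl oxidase, had 10.91, 10.82, 9.70, 10.81 and 11.33 in group 3 and 9.55, 9.56, 10.18, 9.14 and 8.91 in group 2 (change 1.25, adjusted p = 0.0279). Sqle, the squalene epoxidase and a controlled step of the pathway, rose by 1.22 (adjusted p = 0.061), Cyp51, the lanosterol demethylase, by 0.93 (adjusted p = 0.0352), and Hsd17b7 and Ebp by 0.98 and 0.37, without overlap (adjusted p = 0.00447 and 0.0174). Lss, Nsdhl, Dhcr7, Tm7sf2, Sc5d and Lbr did not pass the test, with changes between −0.07 and 0.44. Group 3 rat 3 was the lowest rat of its group at 15 of the 19 genes of both lists, compared with 21.1% of all genes. Idi1 lost its call in 5 and Fdft1 and Sqle each in 8 of the 10 fits that left out 1 rat. Of 12 genes of sterol sensing, uptake and export 1 rose (Stard4, by 0.49) and 1 fell, against 3.4% and 3.14% of all genes (median 0.02). The fall was that of Insig2, which holds SREBP in the endoplasmic reticulum. Insig2 had 10.50, 11.04, 11.58, 11.04 and 10.90 in group 3 and 12.80, 12.48, 13.16, 12.40 and 12.54 in group 2, without overlap, a change of −1.66 (standard error 0.19, adjusted p = 0.000394). Its relative Insig1 had a change the other way, of 0.75, and did not pass the test.

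The fed rats of group 1 had the highest mean of the 3 groups at 18 of the 19 genes. Idi1 had 9.07 ± 0.73 in group 3, 10.32 ± 0.26 in fed group 1 (n = 4) and 7.68 ± 0.63 in group 2, and Sqle had 8.77 ± 0.72, 9.82 ± 0.26 and 7.56 ± 0.52 in the same order (SD, n = 5 unless given). At 18 of the 19 genes the mean of group 3 lay between those of the fed and the fasted ad libitum rats, compared with 34.2% of all genes, without a test of that order.

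In fatty acid synthesis, 6 of 14 genes rose and none fell (median over the list 0.39), against 3.4% and 3.14% of all genes. Thrsp, an inducer of lipogenesis also called Spot14, had 13.04, 12.96, 11.48, 12.66 and 13.23 in group 3 and 10.90, 11.33, 10.32, 10.39 and 11.28 in group 2, a change of 1.83 without overlap (standard error 0.31, adjusted p = 0.0057). Fasn, the fatty acid synthase, had 9.27, 9.13, 8.23, 8.83 and 9.80 in group 3 and 8.46, 8.17, 8.33, 7.99 and 8.10 in group 2 (change 0.84, adjusted p = 0.0595), and Acss2, which makes acetyl-CoA from acetate, 10.16, 10.13, 9.37, 10.12 and 10.36 in group 3 and 9.42, 9.27, 9.51, 9.04 and 8.99 in group 2 (change 0.78, adjusted p = 0.0211). Here too rat 3 of group 3 was the one that reached into the controls. Scd, the stearoyl-CoA desaturase, rose by 1.45 (standard error 0.44, adjusted p = 0.0986), just inside the threshold. Srebf1, the lipogenic transcription factor, and Slc25a1, the citrate carrier, rose by 0.75 and 0.36. The count of this list was 10 without group 3 rat 3 and 4 without group 3 rat 1, group 3 rat 2 or group 2 rat 2. Fads1, the Δ5-desaturase, rose without overlap by 1.38 (adjusted p = 0.0037), while Elovl5, an elongase of the same polyunsaturated fatty acids, fell by 0.59 (adjusted p = 0.0565).

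**Figure D2:**
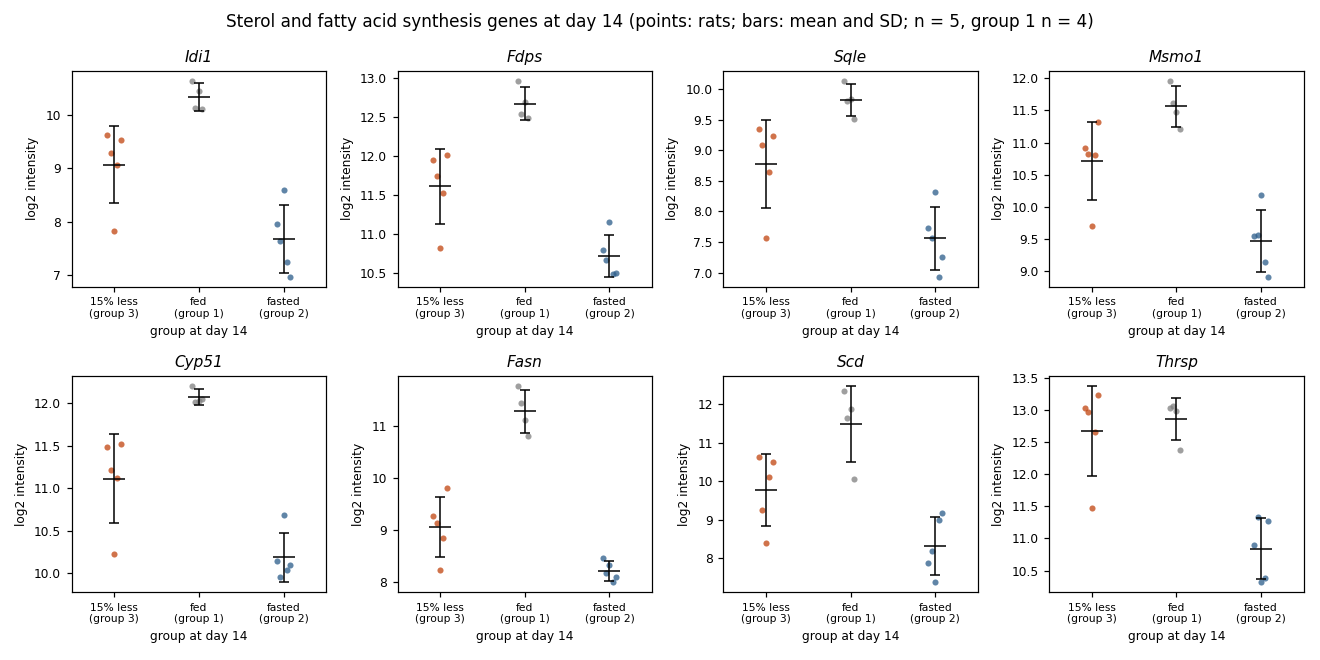
Log2 intensity (y axes) of 8 genes of sterol and fatty acid synthesis at day 14 with 15% less food, in fed ad libitum rats and in fasted ad libitum rats (x axes); points are rats, bars the mean and SD of 5 (group 1, 4). The means with 15% less food stand between the others at all 8 genes, near the fed rats at Thrsp, and 1 restricted rat lies among the fasted controls at every gene but Thrsp.

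Among genes that build and coat stored fat, falls outnumbered rises. Of 18 genes of triglyceride and phospholipid synthesis 5 fell and 1 rose (median −0.09), against 3.14% and 3.4% of all genes. Chka, the choline kinase at the head of phosphatidylcholine synthesis, had 7.86, 8.63, 9.01, 8.48 and 8.01 in group 3 and 10.29, 10.03, 10.21, 10.38 and 10.66 in group 2, falling by 1.92 (standard error 0.20, adjusted p = 0.000176). Gpam, the mitochondrial glycerol-3-phosphate acyltransferase that starts triglyceride synthesis, had 6.38, 6.89, 7.17, 6.32 and 6.71 in group 3 and 7.99, 7.73, 8.32, 7.93 and 8.15 in group 2 (change −1.33, adjusted p = 0.000672), and Agpat2, Agpat3 and Chkb fell by less. Lpin2, a phosphatidate phosphatase, was the 1 gene to rise, with 10.66, 10.34, 9.59, 9.79 and 10.56 in group 3 and 8.74, 8.24, 8.46, 8.66 and 8.24 in group 2 (change 1.72, adjusted p = 0.000443). Of 15 genes of lipid droplets, 3 fell and none rose. Plin2, the main coat protein of hepatic lipid droplets, had 10.89, 10.55, 11.12, 10.94 and 10.47 in group 3 and 12.25, 12.38, 12.78, 12.03 and 12.75 in group 2, falling by 1.64 (adjusted p = 0.000132), and Lpl and Plin5 fell by 0.78 and 0.73.

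Of 19 genes of mitochondrial fatty acid oxidation 6 fell and 1 rose (median −0.17 over the list), against 3.14% and 3.4% of all genes. The members that fell were Eci1 and Eci2, which move double bonds, Etfdh, which passes electrons to ubiquinone, both subunits of the trifunctional protein (Hadha and Hadhb), and the carnitine carrier Slc25a20. Etfdh had 10.999, 11.21, 11.47, 11.11 and 11.07 in group 3 and 11.60, 11.62, 11.63, 11.76 and 11.75 in group 2, a change of −0.50 (standard error 0.09, adjusted p = 0.00652), and Eci1 12.94, 12.68, 13.44, 12.79 and 12.54 in group 3 and 13.52, 13.37, 13.71, 13.45 and 13.66 in group 2 (change −0.66, adjusted p = 0.0217), where group 3 rat 3 was highest and overlapped the controls. The 1 gene to rise was Ppara, the receptor that activates most of these genes, by 0.70 (adjusted p = 0.0802), a call lost in 6 of the 10 fits without 1 rat. Cpt1a, the gate of entry into mitochondria, had a change of 0.09 and did not pass the test. The count of genes that fell was 3 without group 3 rat 4, group 3 rat 5 or group 2 rat 5.

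In peroxisomes 5 of 12 genes fell and none rose (median −0.23), against 3.14% and 3.4% of all genes. Crot, which exports medium-chain acyl groups as carnitine esters, had 10.74, 11.56, 11.38, 10.67 and 11.25 in group 3 and 12.16, 12.42, 12.68, 12.74 and 12.36 in group 2, falling by 1.35 without overlap (standard error 0.17, adjusted p = 0.0011). Crat, Ech1, Ehhadh and Hsd17b4 fell by 0.66, 0.60, 0.46 and 0.23. This count was 2 without group 3 rat 2, group 2 rat 3 or group 2 rat 5 and 3 without group 3 rat 5 or group 2 rat 4. The fatty acid ω-hydroxylase Cyp4a1, a target of PPARα, fell as well. It had 11.78, 11.66, 12.46, 11.76 and 11.59 in group 3 and 12.76, 12.65, 12.66, 12.90 and 12.75 in group 2, with group 3 rat 3 nearest to the controls (change −0.89, adjusted p = 0.00362). Its relative Cyp4a3 had a change of −0.35 (adjusted p = 0.0856), a call lost in 8 of the 10 fits without 1 rat, in 1 fit of all groups and in LNN-MV, the model that the study used. In the ketone body list, Slc16a1, the monocarboxylate transporter that lets ketone bodies and lactate cross the cell membrane, had 9.91, 9.64, 10.14, 10.02 and 9.41 in group 3 and 11.37, 11.52, 11.68, 11.18 and 11.43 in group 2, falling by 1.61 (adjusted p = 5.8e-05). Acat1, the mitochondrial thiolase, fell by 0.41 (adjusted p = 0.0137), and the other 3 genes of the 5 did not pass the test.

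**Figure D3:**
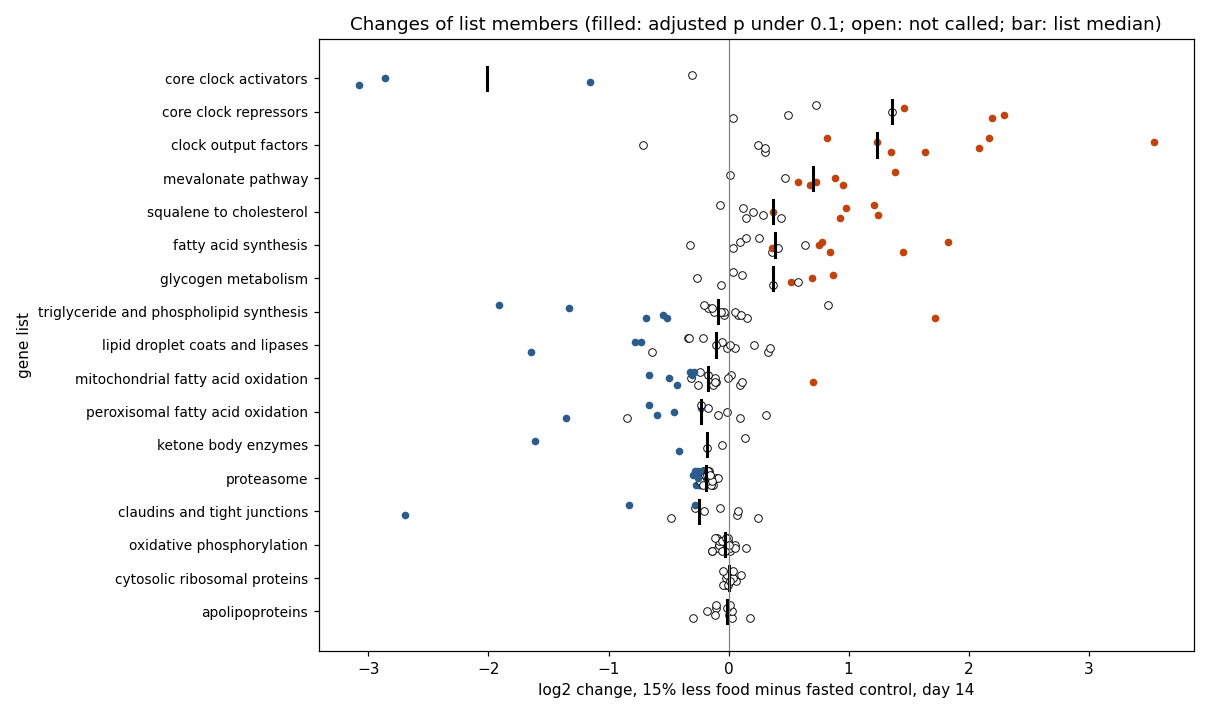
Log2 change of each member (x axis, 15% less food minus fasted control at day 14) of 17 gene lists (y axis); filled points passed the test, open points did not, and the black bar is the median of all members. Clock lists reach furthest from 0, sterol and fatty acid synthesis lie to the right, oxidation, lipid storage and proteasome to the left, and oxidative phosphorylation, ribosomal proteins and apolipoproteins hold no gene called in this fit.

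Carbohydrate genes moved in both directions. Slc2a2, the hepatic glucose transporter GLUT2, had 12.67, 12.50, 12.46, 12.79 and 12.80 in group 3 and 11.61, 11.22, 11.93, 11.77 and 11.84 in group 2 (change 0.97, adjusted p = 0.00113). Gckr, the protein that holds glucokinase in the nucleus, had 9.62, 9.98, 10.25, 9.34 and 10.29 in group 3 and 11.32, 11.17, 11.43, 11.33 and 11.32 in group 2, falling by 1.42 (adjusted p = 0.000406). Neither gene overlapped between the groups. Of 13 genes of glycolysis and glucose entry 3 rose and 2 fell, against 3.4% and 3.14% of all genes. Khk, the fructokinase, rose by 0.38 (adjusted p = 0.00689), Pklr, the liver pyruvate kinase, by 0.70 (adjusted p = 0.0425), and Ldha, a lactate dehydrogenase subunit, fell by 0.62 (adjusted p = 0.00346).

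Glycogen genes gave 3 rises and no fall among 9 (median 0.37). Ugp2, which makes UDP-glucose, had 13.49, 13.49, 12.95, 13.39 and 13.62 in group 3 and 12.57, 12.77, 12.24, 12.48 and 12.52 in group 2 (change 0.87, adjusted p = 0.00214). Gys2, the liver glycogen synthase, and Gyg1, glycogenin, rose by 0.70 and 0.52 (adjusted p = 0.0125 and 0.00601). Among 13 gluconeogenic genes, 2 rose and none fell: Slc37a4, the glucose-6-phosphate carrier, by 0.48 and Pck2 by 0.34. The counts of the glycogen and gluconeogenic lists stand beside 3.4% of all genes that rose and 3.14% that fell. Pck1, the cytosolic carboxykinase, had a change of 0.14 and did not pass the test. Of the measured hubs of the study's network, Pklr and Tkt (transketolase) rose, Hadha fell, and Pgm1, Tpi1 and Eno3 did not pass the test. Gk (glycerol kinase), which the study names for the many paths through its edge, fell as well. The study describes Tkt as lower than in its control samples. Here Tkt was 0.39 above fasted group 2, and its mean was 0.70 below that of fed group 1. For Pgm1 the study describes higher levels than in the fasted control in most restricted groups, and its change here was 0.11. Tkt lost its call in 6 of the 10 fits without 1 rat, and Hadha in 4, in LNN-MV and with the mean of its probe sets. The study chose these enzymes on the same animals, so their count is no independent evidence.

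Among 25 genes of amino acid breakdown 3 rose and 4 fell, against 3.4% and 3.14% of all genes. Kynu, the kynureninase of tryptophan breakdown, had 10.48, 10.90, 11.30, 10.44 and 10.93 in group 3 and 12.63, 12.52, 12.51, 12.44 and 12.46 in group 2, falling by 1.70 (standard error 0.14, adjusted p = 5.8e-05). Sds, the serine dehydratase that feeds gluconeogenesis, had 13.58, 13.96, 13.71, 13.82 and 13.67 in group 3 and 12.87, 11.58, 11.999, 12.75 and 13.24 in group 2 (change 1.26, adjusted p = 0.0163). The controls of Kynu lay within 0.19 units of each other, whereas those of Sds spread over 1.66 and overlapped with no rat of group 3. Cth and Gldc, of cysteine synthesis and glycine cleavage, fell by 0.75 and 0.64. Transporters of amino acids and organic anions gave 3 rises and 4 falls among 19, beside the same shares of all genes. Slc6a6, the taurine transporter, had 6.44, 6.99, 7.48, 6.25 and 6.58 in group 3 and 9.57, 9.24, 9.33, 9.04 and 9.10 in group 2, falling by 2.51 or 5.69-fold (adjusted p = 4.11e-05). Abcb4, which moves phosphatidylcholine into bile, fell by 1.14 (adjusted p = 0.0018), and Abcc2, which exports conjugates into bile, rose by 0.82 (adjusted p = 0.000132).

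All 30 measured proteasome genes had lower means in group 3, and 10 of them fell, against 3.14% of all genes. The groups did not overlap at 14 of them, with group 3 below, against 2.81% of all genes. The changes lay between −0.30 and −0.09, with a median of −0.19. Psmd14, the deubiquitinase of the lid, had 9.49, 9.54, 9.35, 9.35 and 9.46 in group 3 and 9.81, 9.67, 9.82, 9.67 and 9.72 in group 2 (change −0.30, adjusted p = 0.0177). At day 4, in other rats, the means of all 30 genes were also lower in group 3 than in group 2 (median −0.21). The count of 10 was 5 without group 3 rat 1, 4 or 5 or without group 2 rat 1, and 6 without group 2 rat 3 or 5.

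Smaller groups added single genes of regulation and stress. Of 22 nuclear receptors 4 rose and 2 fell. These counts and that of the bile acid genes stand beside 3.4% of all genes that rose and 3.14% that fell. Nr0b2, the repressor SHP that acts on bile acid synthesis, had 11.01, 11.06, 10.22, 10.62 and 10.61 in group 3 and 10.03, 9.35, 8.26, 9.33 and 9.97 in group 2 (change 1.32, adjusted p = 0.0234). Rarb, a retinoic acid receptor, had 8.10, 8.51, 8.64, 8.24 and 8.01 in group 3 and 9.50, 8.96, 9.57, 9.26 and 9.27 in group 2 (change −1.01, adjusted p = 0.00163). The groups were apart at both genes. Pparg and the xenobiotic receptor Nr1i2 rose by 0.51 and 0.42, and the count of rises was 1 without group 3 rat 1. Of 13 bile acid genes Cyp7b1 rose besides Nr0b2, with all 5 rats of group 2 below log2 5, while Cyp7a1, the rate-limiting enzyme, had 11.47 ± 0.69 in group 3 and 10.27 ± 0.87 in group 2 (SD, n = 5 each) and did not pass the test (adjusted p = 0.146).

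Of 13 targets of the integrated stress response 1 rose and 3 fell. Atf5, a transcription factor of this response, had 11.61, 11.57, 11.89, 11.36 and 11.66 in group 3 and 12.37, 12.57, 13.07, 12.55 and 12.76 in group 2, falling by 1.05 without overlap (adjusted p = 0.000683), Atf4 fell by 0.26, and Ddit3, which encodes CHOP, rose by 0.43. Of 14 chaperones Fkbp4, a partner of steroid receptors, and Hspe1 fell, by 0.75 and 0.31, and of 23 genes of folding in the endoplasmic reticulum Herpud1 and Sdf2l1 rose, by 0.92 and 0.44. The call of Herpud1 was lost without group 3 rat 1 or group 2 rat 1 (adjusted p up to 0.117). Gclm, a subunit of the enzyme that starts glutathione synthesis, was the 1 of 16 NRF2 targets to rise, by 0.95 (adjusted p = 0.0171), and 2 rose without group 3 rat 3 or group 2 rat 3. Nr3c1, the glucocorticoid receptor, rose by 0.62 (adjusted p = 0.0101), and of the 17 genes of its list 2 rose and 1 fell, with 4 rises without group 2 rat 5. The counts of these short lists stand beside 3.4% of all genes that rose and 3.14% that fell. Of 20 cytochrome P450 genes and their regulators 3 rose and 2 fell. Por, the reductase that feeds them electrons, rose by 1.15 without overlap (adjusted p = 0.0416), and without group 3 rat 1 none of the 3 rises of this list was called.

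The largest rise of all genes was that of Hsd17b2, an enzyme that inactivates estradiol and testosterone. It had 13.83, 13.79, 13.50, 13.72 and 14.06 in group 3 and 9.84, 11.22, 9.06, 10.47 and 9.59 in group 2, a change of 3.75 (standard error 0.32, adjusted p = 5.8e-05) or 13.4-fold. The lowest rat with less food was more than 2 log2 units above the highest control. Stat5b, the mediator of growth hormone in the same list, fell by 0.83 (adjusted p = 0.00352), and sex-dependent Cyp2c11, Cyp2c12 and Cyp2c13 had changes between −0.19 and 0.15 and did not pass the test. Nampt and Nmrk1, enzymes of NAD salvage, rose by 1.42 and 1.45 (adjusted p = 0.0113 and 0.000547). Of 20 genes of energy sensing and NAD 3 rose and none fell, against 3.4% and 3.14% of all genes. Other large rises were those of Kcnj15, a potassium channel, Nat8, an acetyltransferase of cysteine conjugates, and Lmo7, a cytoskeletal adaptor, by 2.15, 2.04 and 1.64.

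Secreted factors and junction proteins were among the largest falls. Cldn1, a tight junction protein, had 7.01, 8.01, 8.42, 7.30 and 6.88 in group 3 and 10.12, 9.68, 10.43, 10.29 and 10.56 in group 2, a change of −2.69 (standard error 0.28, adjusted p = 0.000168). Of 10 genes of tight junctions, Cldn2 and Tjp1 fell besides it, by 0.83 and 0.28, and none rose. Among all genes 3.14% fell and 3.4% rose. Inhba, a subunit of activin, had 5.95 to 6.36 in the rats of group 3 and 7.95, 8.63, 8.99, 7.46 and 7.97 in group 2, without overlap (change −2.09, adjusted p = 0.000406). The liver-made subunit Inhbc and the fasting hormone Fgf21 fell by 0.97 and 0.97 (adjusted p = 0.00362 and 0.0366), and the other 14 of the 17 secreted signals did not pass the test. Igfbp2, which binds insulin-like growth factors, had 8.22, 9.52, 9.32, 8.79 and 9.11 in group 3 and 11.62, 11.30, 11.15, 11.52 and 9.80 in group 2, where rat 5 stood apart below the others (change −2.09, adjusted p = 0.00362). Cdkn1a, the cell cycle inhibitor p21, fell by 1.69, Rprm, a further inhibitor of the cycle, by 2.38, Tubb2a, a β-tubulin, by 1.81, Slc1a4, a carrier of neutral amino acids, by 2.02, and Slc34a2, a phosphate carrier, by 1.71. Poteml2 and Lgalsl completed the 15 largest falls, by 2.20 and 1.93.

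Several groups of genes gave no call. None of 21 genes of oxidative phosphorylation, 12 cytosolic ribosomal proteins, 15 acute phase and carrier proteins of plasma or 11 apolipoproteins passed the test, and their medians lay between −0.08 and 0.004. At an unadjusted p under 0.05 they held 3, 0, 1 and 2 genes, against 16.5% of all genes. As 6.54% of all genes were called, lists this short can hold no call without being set apart from other genes. The ribosomal proteins had no call in any alternative, whereas 1 fit of all groups called 1 gene of oxidative phosphorylation, 1 acute phase protein and 2 apolipoproteins, the trended robust fit 1 of oxidative phosphorylation, the mean of probe sets 1 acute phase protein and 1 apolipoprotein, and leaving out group 3 rat 3 or rat 4 also 1 apolipoprotein. Of 78 markers of other cell types, 1 rose and 2 fell, against 3.4% and 3.14% of all genes. They were Lrat and Pdgfrb of stellate cells, by 0.76 and −0.59, and Fcgr2b of endothelium, by −0.26. Fcgr2b (adjusted p = 0.093) lost its call in 9 of the 10 fits without 1 rat, with centred arrays, with array weights and in LNN-MV, and Pdgfrb with the mean of its probe sets. The summed intensity of the 11 macrophage markers was 13943 to 20498 in group 3 and 11936 to 18493 in group 2, of the 10 endothelial markers 8337 to 8894 and 8668 to 9918, and of the 15 stellate and fibroblast markers 5252 to 7089 and 4659 to 7022. The part of these cells in the results above was not tested.

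A further question is whether the difference at day 14 was there at day 4, in rats that share no animal with those above. Of the 484 genes that rose at day 14, 369 (76.2%) had a higher mean with less food at day 4 too, with a median day 4 change of 0.08, and of the 446 that fell, 377 (84.5%) had a lower mean, with a median of −0.15. Over all genes 49.1% were higher. The change at day 14 differed from that at day 4 at 84 genes (0.591%) at 53 with a positive and at 31 with a negative sign (0.373% and 0.218%). This test uses the same day 14 rats, so genes named for a large change at day 14 start from a large value in it. In group 2 itself, 1 gene was called between the days (Jam3; 0.00703%), and 1230 genes (8.65%) had an unadjusted p under 0.05. Sampling day and any batch of the days cannot be told apart.

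Cldn1 showed the contrast plainly. It had 9.37, 10.03, 9.15, 9.93 and 9.97 in group 3 at day 4 and 10.26, 10.41, 9.94, 10.09 and 10.04 in group 2 at day 4, and the groups overlapped, whereas at day 14 they were apart by more than 1 unit (difference between the days −2.24, standard error 0.35, adjusted p = 0.00907). Kynu, Crot and Slc16a1 had day 4 changes of −0.39, −0.04 and −0.46, and their differences between days were −1.31, −1.31 and −1.15 (adjusted p = 0.00907, 0.00907 and 0.0251). Kynu was already without overlap at day 4, at 11.91 to 12.45 in group 3 and 12.47 to 12.70 in group 2. Gckr, Gpam, Chka, Atf5, Slc1a4 and Lgalsl had negative differences between days too, and Lmo7, Nat8, Kcnj15, Nmrk1, Ugp2, Wee1 and Mvd positive ones. At day 4 Wee1 averaged 6.59 ± 0.33 in group 3 and 6.62 ± 0.11 in group 2 (SD, 5 rats each), and it was the 1 clock gene with a called difference between days (1.38, adjusted p = 0.0272). Bcl6, a transcriptional repressor, had the largest called difference between days: it had 8.25, 8.44, 7.56, 7.79 and 8.06 in group 3 and 10.98, 10.65, 10.32, 10.02 and 10.41 in group 2 at day 4, and 9.76, 8.22, 7.33, 7.79 and 9.79 in group 3 and 9.53, 7.25, 7.52, 6.93 and 8.76 in group 2 at day 14 (difference between days 3.04, adjusted p = 0.0656). At day 14 its rats spread over 2.46 units in group 3 and 2.60 in group 2 and overlapped. Its group 2 rats were lower at day 14 than at day 4 without overlap, while its group 3 rats overlapped between the days. The difference between days thus lay largely in the controls, although Bcl6 was not called between the days in group 2.

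**Figure D4:**
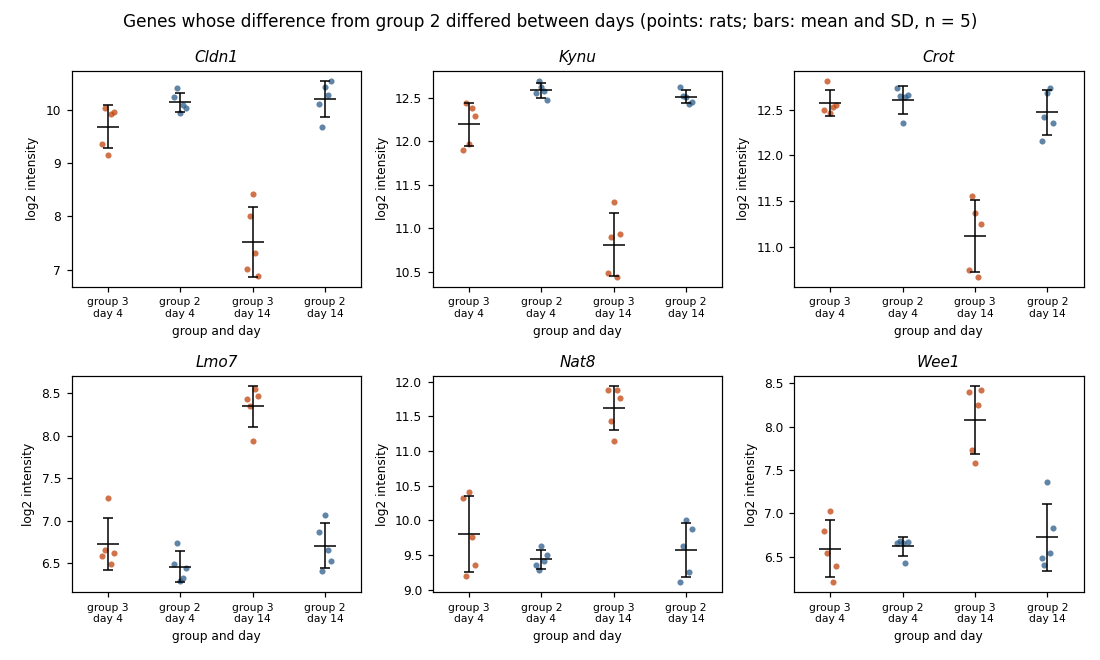
Log2 intensity (y axes) of 6 genes in group 3 and group 2 at day 4 and day 14 (x axes); points are rats, bars the mean and SD of 5. At day 4 the groups overlap for each gene but Kynu, and at day 14 Cldn1, Kynu and Crot lie lower and Lmo7, Nat8 and Wee1 higher with 15% less food.

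For the clock and sterol lists the day 4 medians were smaller than those of day 14. Activators had −0.57 at day 4 against −2.01 at day 14, repressors 0.53 against 1.36, output genes 0.44 against 1.24, and the mevalonate list −0.01 against 0.70. Fatty acid synthesis had 0.07 against 0.39 and peroxisomal oxidation −0.11 against −0.23. Mitochondrial fatty acid oxidation was not smaller at day 4, with −0.19 against −0.17. Of its 19 genes 18 were negative at day 4 and 15 at day 14. Dbp had a day 4 change of 1.68, Bmal1 of −1.16 and Per3 of 1.08, and their differences between days did not pass the test (adjusted p = 0.276, 0.111 and 0.434). For Msmo1 and Fdps, with day 4 changes of −0.10 and −0.05, the test of the difference gave adjusted p = 0.113 and 0.114.

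The last question is how far the state with 15% less food differs from that with stronger restriction at day 14. Against group 4 (30% less food), 7 genes passed the test (0.0492%): Ugt2b34l1, Palld, Glyatl2 and Enpp3 were higher in group 4 (0.0281%) and Cela1, Grtp1 and St6galnac4 lower (0.0211%). At an unadjusted p under 0.05 there were 1162 genes (8.17%). Against group 5 (60% less food), 1358 genes passed (9.55%), 535 higher in group 5 (3.76%) and 823 lower (5.79%). These comparisons share the rats of group 3 with the main one.

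Several genes that fell with 15% less food had a lower level still in group 5. Of the 446 that fell, 78 were called lower and 34 higher in group 5 than in group 3, against 5.79% and 3.76% of all genes. Of the 484 that rose, 63 were lower and 39 higher in group 5 than in group 3. Together these were 25.1% of the genes that fell and 21.1% of those that rose, against 9.55% of all genes. None of the 446 was called between groups 4 and 3. Crot had means of 12.47 in group 2, 11.12 in group 3, 10.39 in group 4 and 9.46 in group 5, and the difference of group 5 from group 3 was −1.66 (standard error 0.22, adjusted p = 0.00337). Inhba, Elovl5, Ldha, Gk, Kynu and Atf5 were lower in group 5 than in group 3 as well, by 1.21, 1.37, 0.94, 1.02, 0.77 and 0.87. The mean of Inhba in group 5 lay under log2 5, where genes were counted as dim, so the size of its further fall is less precise. Igfbp2 was lowest in group 3 of the fasted groups: its means were 11.08 in group 2, 8.99 in group 3, 9.78 in group 4 and 11.41 in group 5, and group 5 exceeded group 3 by 2.42 (standard error 0.42, adjusted p = 0.00974). In fed group 1 its mean was 7.75. For the clock, Dbp had 7.26, 10.80, 10.37 and 10.77 in groups 2 to 5, and Bmal1 9.08, 5.99, 6.23 and 6.27; neither differed between groups 5 and 3 beyond the threshold (adjusted p = 0.942 and 0.457). Per3 and Cry1 were higher in group 5 than in group 3, by 0.39 and 0.89 (adjusted p = 0.0365 and 0.00565). Of 12 ribosomal protein genes 7 were higher in group 5 than in group 3, against 3.76% of all genes, with a median over the list of 0.20.

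**Figure D5:**
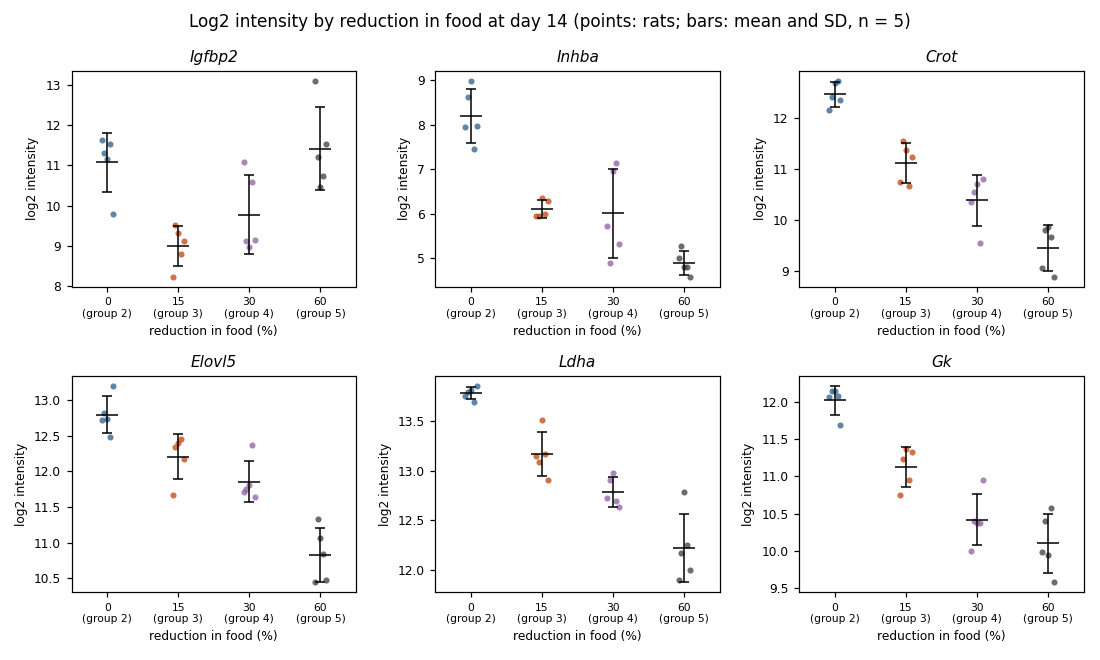
Log2 intensity (y axes) of 6 genes at day 14 by reduction in food in percent (x axes, groups 2 to 5); points are rats, bars the mean and SD of 5. Crot, Elovl5, Ldha and Gk have lower means at each step, Inhba is at a like mean in groups 3 and 4, and Igfbp2 is lowest at 15%.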

How the data were processed

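Liver RNA of 49 rats was hybridised to 1 Affymetrix rat expression array each. The authors processed the scans by robust multi-array averaging (affy 1.38.1 under R 3.0.1, per the submitters' processing notes, which also name Expression Console) and deposited an intensity per probe set on a linear scale, rounded to whole numbers. Rounding steps are 0.017 on the log2 scale at the median intensity of 83 and 0.17 at the lowest intensity of 8. Background correction and quantile normalization by the authors leave no total to compare between groups.

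The intensities were taken to log2. Of 31042 probe sets 20826 carried 1 gene symbol, 436 several and 9780 none, the last 2 kinds being left out, and 20758 of those with 1 symbol matched the RefSeq table by gene ID. For the 4525 genes with several probe sets, the brightest on average over the 49 arrays was kept, which left 14217 genes. No named gene had a further probe set called in the opposite direction. No 2 arrays held identical values, and arrays of a group correlated with a median r of 0.991 to 0.994. Groups were compared with limma 3.58.1 (R 4.3.3; lmFit and eBayes) with Benjamini-Hochberg adjustment over all genes and a threshold of 0.1. The LNN-MV empirical Bayes model that the study's methods name was written anew as an alternative and not checked against the original package. On simulated data with 14217 genes, limma found 99% of changes of 1 and 76% of changes of 0.5 in the comparison of groups 3 and 2, with 11 false among 186 calls, and LNN-MV 99% and 86%, with 46 false among 231. Figures and summaries were made in Python 3.11.15 (numpy 2.4.6, pandas 2.3.3, matplotlib 3.10.9).

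Named genes were first the 15 largest rises and 15 largest falls among called genes whose rats did not overlap. The higher group of each averaged at least log2 6. Added to these were up to 4 called members of each list with the largest change and all clock and cholesterol synthesis genes. The 6 largest differences between days, the hub enzymes and Gk completed the set. Other list members are named for what they do and were picked after their values were seen. The comparison and the lists were chosen with earlier results of these data known. The labels give each array its own animal number, so replicates are animals, and name no batch other than the day. Which rats shared a cage is not given, so all were treated as independent. Alternatives were another threshold, a minimum fold, 1 fit of all groups, a filter on dim genes (mean under log2 5), 2 other treatments of probe sets, quantile normalization again, centring, array weights, a trended robust spread, LNN-MV and leaving out each rat.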

Additional observations from a re-analysis of the deposited data

Results flagged for a closer look

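Of 306 groups of 5 rats (153 named genes in groups 3 and 2 at day 14), 14 held 1 rat far from the other 4 by Dixon's criterion; chance alone sets apart about 1 in 20 groups. In group 3, rat 3 stood below the others at Acss2 (9.366 against 10.12 to 10.36) and Lrat (7.679 against 8.317 to 8.468) and above them at Cyp4a1 (12.46 against 11.59 to 11.78). Rat 4 of group 3 was low at Cyp4a3 (12.84) and rat 2 at Eno3 (5.672). In group 2, rat 3 was low at Nr1d2 (8.077 against 9.182 to 9.451) and high at Cyp51 (10.69 against 9.95 to 10.14), Acat1 (12.28) and Psmd1 (9.576). Rat 5 of group 2 was low at Igfbp2 (9.799 against 11.15 to 11.62) and Gk (11.68), rat 2 low at Cth (12.63), and rat 1 low at Nr3c1 (9.137) and high at Ier2 (9.531).

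For 22 named genes the difference of group 3 from group 2 was not the same at day 14 as at day 4, by limma's test of the difference itself (Benjamini-Hochberg adjusted p between 0.009071 and 0.09393). Such a difference was called at 84 of all 14217 genes (0.591%). The named genes include the 6 largest called differences between days and others chosen for their day 14 change. Their count of 22 was therefore partly set by that choice. The day 14 difference exceeded that of day 4 by 3.037 at Bcl6, 1.865 at Kcnj15, 1.673 at Nat8, 1.376 at Wee1, 1.375 at Lmo7, 1.218 at Nmrk1, 1.085 at Lrat, 0.8617 at Ugp2, 0.8295 at Mvd and 0.4486 at Pck2. It was below that of day 4 at Mmd2 (−2.425), Cldn1 (−2.236), Slc1a4 (−1.729), Chka (−1.501), Lgalsl (−1.35), Crot (−1.314), Kynu (−1.31), Gckr (−1.189), Slc16a1 (−1.15), Gpam (−1.064), Atf5 (−0.8172) and F5 (−0.3114). At Bcl6, Mmd2, Lrat, Wee1, Mvd and Pck2 the difference from group 2 had opposite signs on the 2 days, for Mmd2 1.388 at day 4 and −1.037 at day 14.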

How the results depend on the processing

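The counts of group 3 minus group 2 at day 14 stayed within 1.5 times 484 higher and 446 lower under every alternative but a minimum change of 1.5-fold, which left 150 higher and 150 lower by its own construction. Without 1 rat they ran between 340 (without group 3 rat 1) and 545 (without group 3 rat 3) higher, and between 314 (group 3 rat 1) and 450 (group 2 rat 4) lower. LNN-MV called 792 genes, of which 788 were among the 930 of limma (84.7% of those of limma, 99.5% of its own). The difference between days gave 23 higher and 19 lower at a threshold of 0.05, 83 higher in 1 fit of all groups and 49 lower after quantile normalization again. Without 1 rat it gave 22 to 129 higher and 18 to 74 lower, the lowest counts without group 3 rat 1 of day 14 and the highest without group 3 rat 3 of day 14 (higher) and of day 4 (lower). Group 4 minus group 3 gave 2 higher at 0.05, 1 higher and 1 lower in 1 fit of all groups, and without 1 rat 1 to 17 higher and 0 to 25 lower, the most without group 4 rat 5. Group 5 minus group 3 gave 280 higher and 438 lower at 0.05, 892 and 1336 in 1 fit of all groups, and without 1 rat 293 (group 5 rat 1) to 848 (group 5 rat 3) higher and 434 (group 3 rat 5) to 875 (group 5 rat 3) lower. Group 2 between the days gave 31 higher and 8 lower in 1 fit of all groups, 0 higher after quantile normalization again, and without 1 rat 0 to 2 higher and 0 to 1 lower. The cause of these shifts was not tested.

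Of the named genes, the calls of the 30 largest rises and falls, Clock, Tef, Hlf, Wee1, Acat2, Fdps, Msmo1, Hsd17b7 and Cyp51 were kept without any 1 rat. The 30 were chosen for large called changes without overlap, which by itself favours keeping the call. Idi1 missed the threshold without group 3 rats 1, 2 or 5 or group 2 rats 4 or 5 (adjusted p of limma up to 0.122), Sqle without 8 of the 10 rats (up to 0.151), Fasn without 5 (up to 0.142) and Scd without 7 (up to 0.217). Pdgfrb, Hadha, Scd and Tjp1 missed it with the mean of all their probe sets (0.43 for Pdgfrb and 0.527 for Hadha). Among genes not called, the change of Ggps1 turned to −0.01282 with the mean of its probe sets, −0.01667 without group 3 rat 1 and −0.02655 without group 3 rat 2 or rat 5 (highest without 1 rat, 0.08709 without group 3 rat 3), and that of Cry1 to −0.005288, −0.1363 and −0.127 without group 2 rats 1, 2 and 4 and to −0.04979 without group 3 rat 4 (highest 0.3499, without group 2 rat 3). The proteasome count of 10 was 21 in 1 fit of all groups, 5 at a threshold of 0.05, 0 at 1.5-fold and 6 in LNN-MV. The clock repressors had 5 rises in place of 3, and the tight junction genes 5 falls in place of 3, in 1 fit of all groups and with array weights. No paired analysis was possible because each rat has its own animal number and the replicate numbers follow only the order of the accessions. Of the 14217 genes, 11969 had a mean of at least log2 5, and changes of dimmer genes are less precise.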

Other observations

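Several genes outside the lists, picked after their values were seen, changed by amounts like those of the clock output genes. Among rises, Hes6, a transcriptional repressor of the HES family, averaged 11.70 ± 0.23 in group 3 and 10.28 ± 0.21 in group 2 (SD, n = 5 each; change 1.42, limma's Benjamini-Hochberg adjusted p = 5.95e-05), and Ddc, the aromatic amino acid decarboxylase, 10.26 ± 0.22 in group 3 and 9.05 ± 0.27 in group 2 (change 1.21). Coq10b, a coenzyme Q-binding protein, and Slc2a5, the fructose transporter, rose by 1.34 and 1.08. Noct, which encodes the rhythmic phosphatase nocturnin, averaged 10.18 ± 1.13 in group 3 and 7.36 ± 1.76 in group 2, a called change of 2.82 (adjusted p = 0.0613) with overlap of the groups. Among falls, Litaf averaged 10.37 ± 0.20 in group 3 and 11.92 ± 0.16 in group 2 (change −1.55, adjusted p = 1.79e-05), and Clpx, an unfoldase of the mitochondrial matrix, 10.33 ± 0.09 in group 3 and 11.80 ± 0.22 in group 2 (change −1.47, adjusted p = 1.77e-05). Vnn1, a pantetheinase and target of PPARα, fell by 1.38, Avpr1a, the vasopressin receptor, by 1.37, Mmp14, a membrane metalloproteinase, by 1.36, and Galt, an enzyme of galactose use, by 0.91, all without overlap of the groups.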
